A study of Homo sapiens with 24 samples.

Results

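The genes described here are 10 that govern passage through G1, the phase in which a cell commits to copying its DNA. They are the D cyclins CCND1 and CCND3, their kinases CDK4 and CDK6, the kinase inhibitor CDKN1B (p27), the E cyclins CCNE1 and CCNE2 with their kinase CDK2, the pocket protein RB1, and the transcription factor E2F1. They were taken by symbol from the Ensembl identifiers of a table of 60617 genes, and all 10 were found and had enough counts to be tested. RNA was sequenced from MDA686TU cells, a human head and neck squamous carcinoma line, in 4 groups of 6 libraries. The groups were an untreated control (NT), 40 µM EGCG (a green tea catechin), 15 µM resveratrol (a plant stilbene), and the combination of both at these doses, each for 24 h.

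All 4 groups share 1 cell line, so the 6 libraries of a group are cultures or extractions of the same cells and not different tumours. The p-values therefore measure the spread between these libraries, part of which may be technical. Resveratrol was diluted from a DMSO stock and EGCG was dissolved in water. The sources used here do not say whether control cells received DMSO, so resveratrol and its solvent cannot be told apart.

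As background, a D cyclin binds CDK4 or CDK6 once growth factors are present, and the active kinase phosphorylates RB1. Phosphorylated RB1 releases E2F factors, which switch on cyclin E and the genes of DNA synthesis, and cyclin E with CDK2 phosphorylates RB1 further. The inhibitors of the INK4 family bind CDK4 and CDK6, whereas those of the CIP/KIP family, p27 among them, bind cyclin-CDK complexes. In head and neck squamous carcinoma this pathway is often altered by gain of CCND1 or loss of CDKN2A. Much of its control acts on proteins, through phosphorylation and degradation, and mRNA counts do not measure those steps.

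In GRCh38 coordinates, CCND1 (ENSG00000110092) lies at chr11:69641156-69654474 and CCND3 (ENSG00000112576) at chr6:41934934-42050357. CDK4 (ENSG00000135446) is at chr12:57747727-57756013 and CDK6 (ENSG00000105810) at chr7:92604921-92836573. CDKN1B (ENSG00000111276) is at chr12:12685498-12722369 and CDK2 (ENSG00000123374) at chr12:55966781-55972789. CCNE1 (ENSG00000105173) is at chr19:29811991-29824312 and CCNE2 (ENSG00000175305) at chr8:94879770-94896678. RB1 (ENSG00000139687) is at chr13:48303744-48599436 and E2F1 (ENSG00000101412) at chr20:33675477-33686385. All 10 are annotated as protein coding.

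Libraries held between 7034872 and 11735574 counts, and 15476 genes were tested. All 7 squamous markers were above 1 FPKM (fragments scaled for gene length and library depth), with a summed level of 5099 to 6730 FPKM over the libraries, and both general epithelial markers were as well. None of 3 leukocyte and 2 endothelial markers passed 1 FPKM, and of 3 fibroblast markers COL1A1 did, at 10.2 to 20.0 FPKM. Replicates 1 to 3 of every group stood apart from replicates 4 to 6 in the share of mitochondrial transcripts, 0.249% to 0.326% against 0.448% to 0.775%. The labels name no batch, so values within each set of 3 are given beside part of the results. In RNA from whole cultures, fewer cells with a transcript and less of it per cell cannot be told apart.

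The promoters of 3 genes are shown because they belong to the genes at the centre of the results: CDK4, which fell most clearly, CCNE1, which rose in both groups given resveratrol, and E2F1, whose mRNA did not change by the test. Each is the 250 bases before the RefSeq start site in GRCh38.p14, on the strand of the gene, and RefSeq windows were found for 7 of the 10 genes. CCND1, CCNE2 and CDK2 had none. The CDK4 window is chr12:57752311-57752560 on the minus strand, and its capitals mark 3 E-boxes.
CDK4: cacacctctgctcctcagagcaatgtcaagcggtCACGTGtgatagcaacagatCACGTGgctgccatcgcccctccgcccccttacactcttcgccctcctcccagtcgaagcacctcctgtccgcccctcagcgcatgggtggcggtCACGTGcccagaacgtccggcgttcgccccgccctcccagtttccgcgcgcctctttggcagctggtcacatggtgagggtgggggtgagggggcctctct
The E2F1 window is chr20:33686386-33686635 on the minus strand, and its capitals mark 2 matches to an E2F site, the first of them on the opposite strand.
E2F1: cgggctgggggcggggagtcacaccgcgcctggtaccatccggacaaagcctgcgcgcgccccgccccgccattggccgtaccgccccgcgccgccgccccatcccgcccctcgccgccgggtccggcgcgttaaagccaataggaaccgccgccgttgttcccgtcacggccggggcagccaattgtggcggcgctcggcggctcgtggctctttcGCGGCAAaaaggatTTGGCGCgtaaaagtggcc
The CCNE1 window is chr19:29811741-29811990 on the plus strand, and its capitals mark 7 GC boxes.
CCNE1: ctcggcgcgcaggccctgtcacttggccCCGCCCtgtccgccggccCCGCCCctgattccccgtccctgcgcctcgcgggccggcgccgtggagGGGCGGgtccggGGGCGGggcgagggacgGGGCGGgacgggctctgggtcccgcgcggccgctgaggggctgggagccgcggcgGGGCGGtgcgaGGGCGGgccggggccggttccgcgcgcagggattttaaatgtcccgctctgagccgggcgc

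The motifs were chosen after the sequences had been seen, and a match describes letters, not a bound site. The E-box (CACGTG, the sequence that MYC-MAX and related factors bind) ends at -211, -191 and -96 in the CDK4 window, counted back from the base before the start. It occurs in 6.34% of 35116 RefSeq windows of this length. For E2F, TTCCCGC was searched on both strands, with the variant TTGGCGC, a further variant, TTCGCGC, and lastly TTGCCGC, and 10.9% of windows held at least 1 of them. In the E2F1 window they lie at -33 to -27 and -19 to -13, and none of the other member windows held one. The only RB1 window, chr13:48476200-48476449, lies inside the gene, whose annotated start is at 48303744. The bases before that start were thus not searched. GC boxes (GGGCGG, the letters that SP1 binds) were in 42.6% of windows, so 1 or more of them is common. In the windows shown, no match overlapped another.

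In untreated cells the levels of the 10 genes, per length, spanned from 298 FPKM for CCND1 to 2.09 FPKM for CCNE2. CCND1 stood above 98.9% of tested genes, with CDK4 next at 62.6 FPKM. CDK2 (26.0 FPKM) and E2F1 (25.9 FPKM) were not separated, since their 6 libraries overlapped from 24.7 to 27.8 FPKM and 25.0 to 27.4 FPKM. They were followed by CDKN1B at 20.0 FPKM, CDK6 at 15.3 FPKM, CCND3 at 9.14 FPKM, CCNE1 at 6.29 FPKM and RB1 at 4.43 FPKM, and none of these neighbours overlapped in the NT libraries. CCND1 was thus the main D cyclin transcript, at 32.8 ± 2.57 times the FPKM of CCND3 (SD, n = 6), and CCND2, the third D cyclin, averaged 0.013 FPKM and was too low to test. CDK4 was the more abundant of the D cyclin kinases, with CDK6 at 0.246 times its FPKM. E2F4, the repressor-type E2F that RBL1 and RBL2 bind, was the most abundant E2F transcript at 48.8 FPKM, above E2F1.

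**Figure D1:**
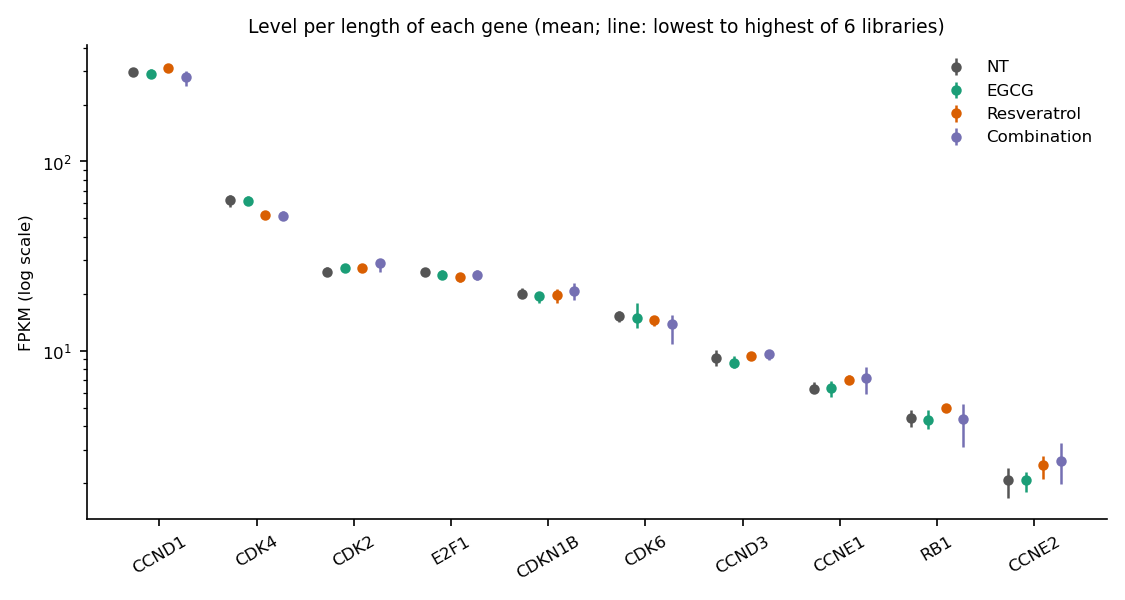
Level of each of the 10 genes in FPKM (log scale) in the 4 groups. Points are means and lines run from the lowest to the highest of 6 libraries. CCND1, near 298 FPKM in NT, lies far above CCNE2 at 2.09 FPKM, and the order of the 10 means is the same in every group.

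None of the 10 genes was called with EGCG alone. A gene was called when its Benjamini-Hochberg adjusted p over all 15476 genes was under 0.1 and its p under 0.05, in edgeR's quasi-likelihood test. By this rule 1.76% of all genes were called with EGCG. None of the 10 had an unadjusted p under 0.05, and DESeq2 called 0 of them too. The log2 fold changes lay between -0.085 (CCND3) and 0.074 (CDK2). The 95% intervals over all 10 genes stayed within -14.9% and 14.9%, the width of CCNE2, the gene with fewest counts. CDK2 was nearest to the threshold, with an adjusted p of 0.496, and all 6 of its EGCG libraries lay above the NT mean.

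Resveratrol alone raised CCNE1, CCNE2 and RB1 and lowered CDK4. These were 4 of 10 genes called, beside 56.9% of all tested genes, of which 28.9% were called higher and 28.0% lower. The median size of change, ignoring sign, was 0.076 on the log2 scale for the 10 genes and 0.20 for all genes. With the combination 6 of 10 were called, beside 59.8% of all genes, 29.9% in each direction, and the median size was 0.12 against 0.22. CCNE1, CCNE2 and CDK2 rose, and CCND1, CDK4 and CDK6 fell. Scaled by library size alone, the median of all genes was 0.092 with resveratrol and 0.081 with the combination on the log2 scale, where TMM put it at 0.0037 and -0.0015. Under it 6 genes rose and 1 fell with resveratrol and 5 rose and 1 fell with the combination, CDK4 being the one that fell in both. Of all 15476 genes, 6147 were called higher and 2857 lower with resveratrol under this scaling. With the combination 6041 were called higher and 3311 lower, so the tilt to rises was shared by all genes. Both comparisons use the same NT libraries, so they are not independent of each other.

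**Figure D2:**
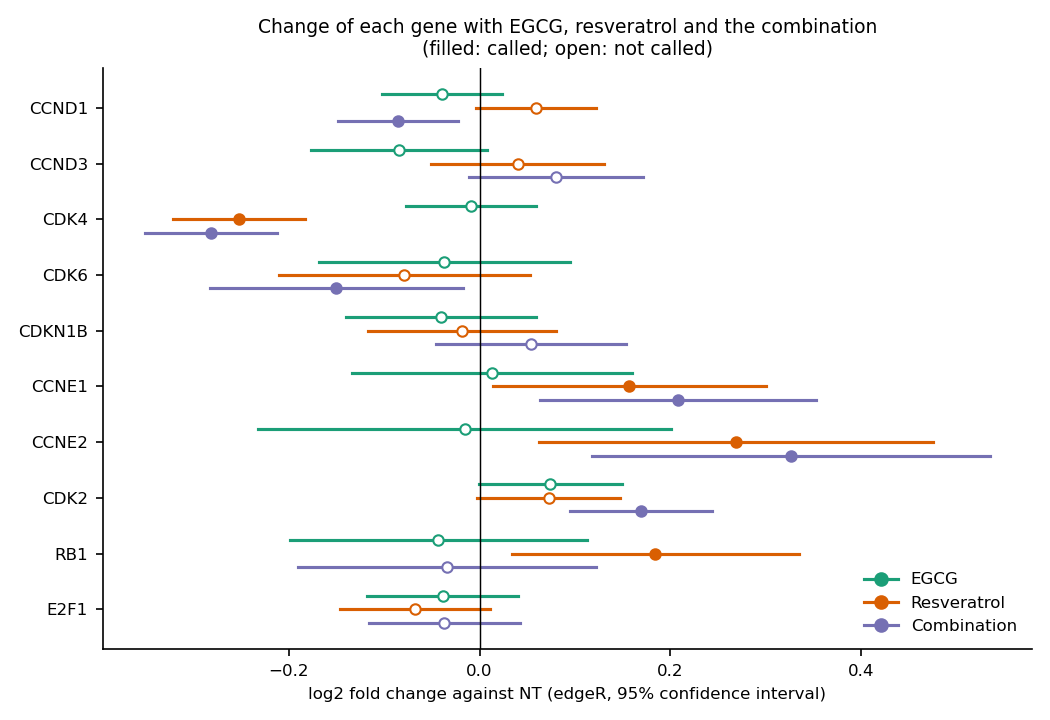
Log2 fold change of each gene against NT with EGCG, resveratrol and the combination, from edgeR with 95% confidence intervals. Filled points were called and open points were not. CDK4 is the only gene near -0.25 and -0.28 with both resveratrol and the combination, and every EGCG interval crosses 0.

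CDK4, the kinase partner of the D cyclins, had the smallest adjusted p of the 10 with resveratrol and with the combination. Its normalized counts (the authors' counts divided by a size factor per library) ran from 1543 to 1802 in NT with a median of 1707. With EGCG they ran from 1623 to 1778 with a median of 1649. With resveratrol they ran from 1388 to 1438 with a median of 1417, and with the combination from 1349 to 1481 with a median of 1371. Every library given resveratrol, alone or combined, was therefore below every NT and EGCG library. Such complete separation from NT, in either direction, was seen for 31.0% of all genes with resveratrol and 31.9% with the combination.

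CDK4 fell by 16.1% with resveratrol (log2 fold change -0.25, SE 0.034, adjusted p = 8.49e-08) and by 17.8% with the combination (-0.28, SE 0.034, adjusted p = 7.66e-09). Against EGCG alone, the combination was lower by a log2 fold change of -0.27 (adjusted p = 1.99e-08). The combination and resveratrol alone did not differ by the test, with a 95% interval of -6.65% to 2.81%. The fall was of like size in both sets of replicates, with resveratrol -0.31 and -0.20, and for the combination -0.31 and -0.25. The genes TSPAN31 and MARCHF9 overlap CDK4 on the other strand, with median counts of 161 and 147 against 1617 for CDK4. The strand setting of the counting is not given in the sources used here.

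CDK6, the second D cyclin kinase, varied more. Its normalized counts were 1514 to 1738 in NT (median 1655), 1408 to 1919 with EGCG (median 1570) and 1453 to 1615 with resveratrol (median 1571). With the combination they spread from 1161 to 1662 (median 1551), and all groups overlapped. CDK6 was called lower with the combination (-0.15, SE 0.065, adjusted p = 0.0492), but the call was lost in many settings. In replicates 1 to 3 the change was -0.20, and in replicates 4 to 6 it was -0.10 and not called (adjusted p = 0.105). Combination replicates 2 and 3, at 1279 and 1161, were the lowest of all 24 libraries, and without replicate 3 the change was -0.089 (adjusted p = 0.196). Without replicate 2 it was -0.11 (adjusted p = 0.149), and without any 1 of NT replicates 5 and 6 or EGCG replicates 1 and 4 the call was lost as well, at -0.13 to -0.12. DESeq2 did not call it either, nor did edgeR with at least 10 counts in every library (-0.12, adjusted p = 0.115), only the groups compared (-0.13, adjusted p = 0.110) or library size alone (-0.067).

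CCND1 encodes cyclin D1, the D cyclin whose gene is often amplified in this cancer. Its normalized counts were 12169 to 12800 in NT (median 12636) and 11631 to 13014 with EGCG (median 12000). With resveratrol they were 12769 to 13297 (median 13120), 5 of 6 libraries above every NT library, and with the combination 10585 to 12637 (median 12023). All 6 combination libraries were below all 6 resveratrol libraries. Such separation of these groups, in either direction, was seen for 3.2% of all genes.

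The combination was lower than resveratrol alone by 9.58% for CCND1 as a fall in level (log2 fold change -0.15, SE 0.031, adjusted p = 0.00292). In this comparison 2 of the 10 genes were called, both lower, beside 7.86% of all genes in either direction and 3.86% lower. Against NT, CCND1 fell by 5.77% with the combination (adjusted p = 0.0186), whereas the 4.22% difference with resveratrol did not pass (adjusted p = 0.107). Both comparisons with NT changed their call with the settings. The fall was not called with library size alone (-0.0029), with at least 10 counts in every library (-0.059, adjusted p = 0.108) or with only the groups compared (-0.065). The difference with resveratrol was called higher under these settings (0.15, 0.085 and 0.066), and also with the sets of replicates as a batch term (0.060, adjusted p = 0.0707). The interaction term, which asks whether the combination departs from the product of both single effects, was -0.11 for CCND1 (adjusted p = 0.536). Of the 10 genes none was called for interaction by edgeR or DESeq2, 1 had an unadjusted p under 0.05, and 0.265% of all genes, 41, were called. That number was 69 with DESeq2, 79 with a batch term and 92 with every gene that had a count, and none of the 10 was among them.

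Combination replicate 3 was the lowest of its group for CCND1, CDK6, RB1, CCNE2 and CDKN1B and the highest for CDK4, CCND3, CCNE1 and CDK2. Without it, the difference of CCND1 between the combination and resveratrol was -0.12 and still called (adjusted p = 0.00793), and that against NT was -0.057 (adjusted p = 0.0773). In replicates 1 to 3 alone the difference of CCND1 between the combination and resveratrol was -0.18, and in replicates 4 to 6 alone -0.11, the latter not called. What sets replicate 3 apart was not tested.

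CCND3, the second expressed D cyclin, had 422 to 514 normalized counts in NT (median 462) and 413 to 473 with EGCG (median 436). With resveratrol it had 457 to 499 (median 473) and with the combination 452 to 514 (median 492). Neither resveratrol (0.040, adjusted p = 0.475) nor the combination (0.080, adjusted p = 0.132) differed from NT by the test. The combination exceeded EGCG alone by 12.1% (0.16, SE 0.046, adjusted p = 0.00258), with all 6 libraries above the EGCG mean and 4 above every EGCG library. This difference was 0.14 in replicates 1 to 3, not called (adjusted p = 0.122), and 0.20 in replicates 4 to 6. Of the 10 genes 5 were called between the combination and EGCG, beside 57.8% of all genes, 28.7% higher and 29.1% lower. CCND3, CCNE1, CCNE2 and CDK2 were higher and CDK4 was lower, the latter with no overlap of libraries, as for 27.5% of all genes.

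**Figure D3:**
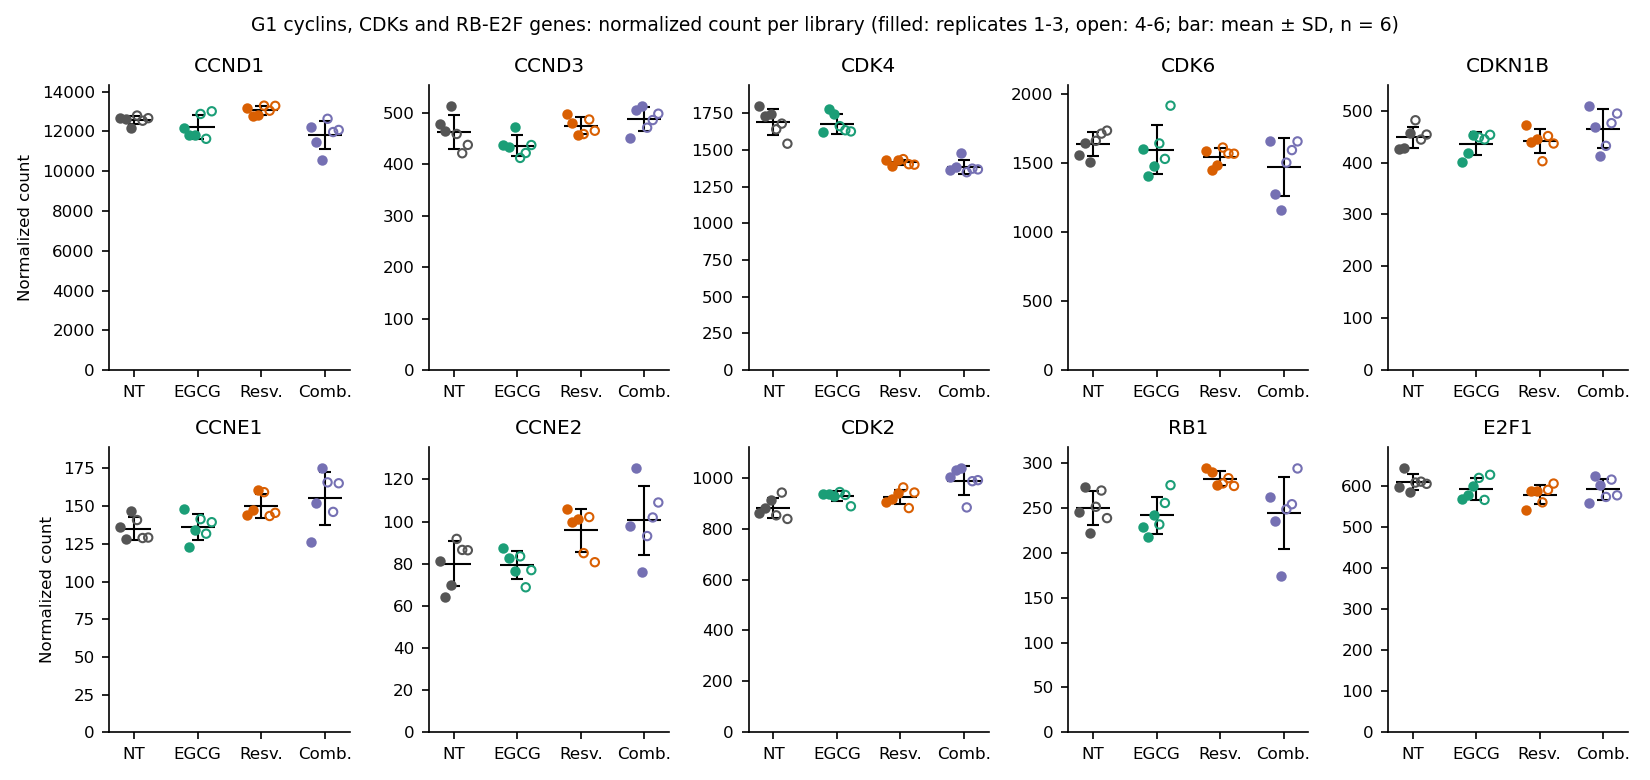
Normalized count of each gene in all 24 libraries, with filled points for replicates 1 to 3, open points for replicates 4 to 6, and bars for the mean ± SD of 6 libraries. CDK4 separates the groups with resveratrol (1349 to 1481) from those without (1543 to 1802), and combination replicate 3 lies low for CCND1, CDK6 and RB1.

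CDKN1B encodes p27, which restrains cyclin E-CDK2 and helps to assemble cyclin D-CDK4. Its normalized counts were 426 to 482 in NT, 400.5 to 454 with EGCG, 403 to 473 with resveratrol and 413 to 510 with the combination. The medians were 449, 447, 442 and 472 in that order, and all groups overlapped. It was called in none of the 6 comparisons with TMM and the expression filter. With library size alone it was called higher with the combination, against NT (0.14, adjusted p = 0.0187) and against EGCG (0.17), and with at least 10 counts in every library it was called against EGCG (0.12, adjusted p = 0.0396). Against NT its 95% interval was -9.23% to 4.21% with EGCG, -7.80% to 5.71% with resveratrol and -3.11% to 11.2% with the combination, so larger changes of its mRNA were outside these intervals.

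Both E cyclin genes rose with resveratrol and with the combination. CCNE1, the cyclin that activates CDK2 at the end of G1, had 128 to 147 normalized counts in NT (median 133) and 123 to 148 with EGCG (median 137). With resveratrol it had 143 to 161 (median 147) and with the combination 126 to 175 (median 158). All 6 resveratrol libraries were above the NT mean and 3 were above every NT library. Of the combination libraries 4 were above every NT library and 1, replicate 1, was below them all.

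CCNE1 rose by 11.5% with resveratrol (0.16, SE 0.071, adjusted p = 0.061), and the combination raised it by 15.5% (0.21, SE 0.071, adjusted p = 0.0129). The call with resveratrol was lost without any 1 of NT replicates 2 and 6 and resveratrol replicates 3 and 4, with values between 0.14 and 0.18 over all libraries left out, and DESeq2 did not call it. In replicates 1 to 3 and 4 to 6 its change was 0.14 and 0.17 under resveratrol, and 0.16 and 0.26 under the combination.

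CCNE2, the second E cyclin, was the least abundant of the 10, at 61 to 91 raw counts per NT library. Its normalized counts were 64.1 to 91.8 in NT (median 83.8) and 68.9 to 87.5 with EGCG (median 80.0). With resveratrol they were 80.8 to 106 (mean 95.8 ± 10.3, SD, n = 6) and with the combination 76.3 to 125.5 (mean 100.7 ± 16.4), 5 of these 6 above every NT library. CCNE2 rose by 20.5% with resveratrol (0.27, SE 0.10, adjusted p = 0.0258) and by 25.4% with the combination (0.33, SE 0.10, adjusted p = 0.00715). The rise with resveratrol was 0.51 in the first set of replicates (1 to 3) and 0.018 in the second (4 to 6). With the combination it was 0.46 and 0.20. INTS8 and NDUFAF6 overlap CCNE2 on the other strand with median counts of 272 and 73.5, near or above the 87.5 of CCNE2, so part of its reads may be of uncertain origin.

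CDK2, the kinase of the E cyclins, was called with the combination and not with resveratrol. Its normalized counts were 838 to 941 in NT (median 872), 887 to 943 with EGCG (median 933) and 880 to 961 with resveratrol (median 928). With the combination they were 883 to 1038 (median 997), 5 of 6 libraries above every NT, every EGCG and every resveratrol library. CDK2 rose by 12.4% over NT (0.17, SE 0.037, adjusted p = 0.000183) and by 6.81% over EGCG (0.095, SE 0.037, adjusted p = 0.0289).

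The single agents each gave about the same CDK2 difference from NT, 0.074 with EGCG and 0.072 with resveratrol, and neither was called. The difference between the combination and resveratrol, 0.097, did not pass either (adjusted p = 0.131), and the interaction was 0.023 (adjusted p = 0.962). The sixth library of the combination, replicate 4, was the low one. Without it the difference from resveratrol was 0.13 and called.

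RB1, the gatekeeper that holds E2F factors inactive, had 222 to 273 normalized counts in NT (median 248) and 218 to 275 with EGCG (median 237). With resveratrol it had 274 to 294 (median 280), every library above every NT library. Complete separation of these groups, in either direction, was seen for 31.0% of all genes. With the combination it spread from 174 to 294 (median 251), overlapping all groups. RB1 rose by 13.6% with resveratrol (0.18, SE 0.074, adjusted p = 0.0364). With the combination it was -0.034 from NT (adjusted p = 0.727) and below resveratrol alone by a log2 fold change of -0.22 (SE 0.075, adjusted p = 0.088).

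The difference of RB1 between the combination and resveratrol was close to the threshold. Combination replicate 3, at 174 normalized counts, was the lowest of all 24, and without it the difference was -0.13 (adjusted p = 0.291). Leaving out single libraries ended this call in 12 of 24 cases, which were each of the 6 resveratrol libraries, combination replicates 2, 3 and 4, NT replicate 5 and EGCG replicates 1 and 4. Other than for combination replicate 3, the value in these cases stayed at -0.23 to -0.21. In replicates 1 to 3 it was -0.38 and in replicates 4 to 6 -0.065. The rise with resveratrol, 0.23 and 0.14 in these sets, lost its call without NT replicate 3, at 0.15.

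E2F1, the activating E2F that RB1 restrains and that also drives its own promoter, did not change by the test in any of the 6 comparisons. Its normalized counts were 586 to 644 in NT (median 606.5), 566 to 627 with EGCG (median 590), 542 to 606 with resveratrol (median 588) and 558 to 623 with the combination (median 590). All 6 resveratrol libraries were below the NT mean, and the 95% interval of the change was -9.63% to 0.789%. With the combination the interval was -7.74% to 2.99%. Among the 7 genes with a window, only that of E2F1 held an exact match to the E2F strings searched, and near matches were not counted. These strings were chosen after the sequences had been seen, and the RB1 window lies inside its gene.

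The balance within each pair of related genes was compared as the log2 ratio of raw counts, in 12 two-sided exact permutation tests of 6 against 6 libraries. None passed after Benjamini-Hochberg adjustment. The largest shift was in CCND1 to CCND3, whose FPKM ratio was 33.1 ± 1.32 with resveratrol and 29.2 ± 2.97 with the combination (exact permutation p = 0.0216, adjusted p = 0.130, n = 6). CDK6 to CDK4 went from 0.246 ± 0.025 in NT to 0.276 ± 0.0098 with resveratrol (exact permutation p = 0.0195, adjusted p = 0.130, n = 6). CCNE1 to CCNE2 was 3.06 ± 0.48 in NT, 2.83 ± 0.38 with resveratrol and 2.84 ± 0.72 with the combination. The smallest p such a test can give is 0.00216.

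CDKN1A and CDKN2B, which encode inhibitors of these kinases, rose by over 1 on the log2 scale, beyond the range of -0.28 to 0.33 of the 10 genes. Of 6 other CDK inhibitor genes, 4 rose and 1 fell with resveratrol and 4 rose and 2 fell with the combination, while none was called with EGCG. These counts stand beside 56.9% of all genes called with resveratrol and 59.8% with the combination, as do those of the lists that follow. CDKN1A, which encodes the CIP/KIP inhibitor p21, went from 697 ± 31.8 normalized counts in NT to 1498 ± 43.5 with resveratrol and 1780 ± 110 with the combination (n = 6). These were log2 fold changes of 1.11 and 1.36. CDKN2B, which encodes the INK4 inhibitor p15, went from 203.5 ± 14 to 441 ± 12.7 and 491 ± 16.3, changes of 1.12 and 1.27. Both were higher in the combination than with resveratrol alone, by 0.25 (adjusted p = 5.79e-05) and 0.15 (adjusted p = 0.0247). In this comparison 1 of the 6 inhibitor genes, CDKN2C, was called lower, and 7.86% of all genes were called in either direction.

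CDKN2A, which encodes p16 and, from another first exon, ARF, was expressed at 17 FPKM in NT and rose by 0.32 and 0.33. Counts per gene do not separate its transcripts. CDKN2D (p19) rose by 0.34 and 0.42. CDKN1C (p57), at 15.5 ± 4.09 normalized counts in NT, fell by 0.66 and 0.50 on the log2 scale. CDKN2C (p18) fell with the combination by 0.53 (adjusted p = 0.00223) and differed by -0.070 with resveratrol (adjusted p = 0.692). The median change of the 6 was 0.33 with resveratrol and 0.38 with the combination, where the median of all genes was 0.0037 and -0.0015.

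Among 11 other RB family and E2F-DP genes, 2 rose and 3 fell with resveratrol and 2 rose and 5 fell with the combination, 5 and 7 of 11 beside 56.9% and 59.8% of all genes. TFDP2, a DP partner of the E2Fs, rose by 0.64 and 0.60, and RBL2, the p130 pocket protein of resting cells, by 0.37 and 0.23. E2F4 fell by 0.24 and 0.27 on the log2 scale and E2F8, an atypical repressor, by 0.29 and 0.32. E2F5 fell with the combination by 0.45, at 24.3 ± 4.32 normalized counts in NT. E2F3 and TFDP1 were also called lower with the combination. RBL1, E2F2, E2F6 and E2F7 were not called in either comparison with NT. The median over the 11 genes was -0.0070 and -0.051, inside the shift of all genes between scalings.

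Genes in a list of cyclins, CDK-activating factors and protein turnover factors mostly fell. The list mixes positive and negative regulators of the G1 kinases, so its count gives no direction of kinase activity. Of 13 tested, 9 fell and 1 rose in each of the comparisons with NT, where 28.0% and 29.9% of all genes fell, with medians of -0.20 with resveratrol and -0.25 with the combination. CCNA2, the cyclin that takes over CDK2 in S phase, fell by 0.45 and 0.72 on the log2 scale and was also called lower with EGCG (-0.14, adjusted p = 0.0914). CUL1 and SKP2, a scaffold and the substrate receptor of the SCF ligase that degrades p27, fell by 0.40 and 0.36 with the combination, and FBXO5, an inhibitor of APC/C, by 0.39. MNAT1, a subunit of the CDK-activating kinase, fell by 0.37 with the combination. AMBRA1, a substrate receptor for the D cyclins, was the one that rose, by 0.21 and 0.26. Of 6 DREAM and MuvB subunits, 1 rose and 2 fell with resveratrol and 2 rose and 2 fell with the combination, LIN9 falling by 0.53. These were 3 and 4 of 6, near the shares of all genes.

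The genes that E2F factors switch on for DNA synthesis changed in both directions, with more falls than rises. Of 32, 18 fell and 8 rose with resveratrol and 19 fell and 8 rose with the combination, with medians of -0.17 in both. Of all genes, 28.0% fell and 28.9% rose with resveratrol, and 29.9% changed in each direction with the combination. The nucleotide enzyme DUT fell by 0.65 and 0.67 on the log2 scale and GINS2, a part of the replicative helicase, by 0.54 and 0.58. The helicase subunits MCM5 and MCM6 fell by 0.50 and 0.49 with the combination. The replication initiator CDC6 rose by 0.15 and 0.23, POLA2 by 0.33 and 0.47, and BRCA1 by 0.32 and 0.35. Between the combination and resveratrol 2 of the 32 were called, CDC6 and RRM2, both higher, beside 7.86% of all genes called in either direction.

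Genes of G2 and mitosis had the lowest median of the 6 lists. Of 12, 11 fell with resveratrol and 12 with the combination, with medians of -0.41 and -0.61, and 3 were called lower with EGCG, where 1.76% of all genes were called. PLK1, a mitotic kinase, went from 2140 ± 91.1 normalized counts in NT to 1126 ± 60.0 with resveratrol and 873 ± 48.9 with the combination (n = 6), log2 fold changes of -0.92 and -1.29. CDC20, AURKA and CCNB1 changed by -1.05, -1.02 and -0.89 with the combination. Against resveratrol alone the combination lowered 9 of the 12, beside 3.86% of all genes, and AURKA and TOP2A were called for interaction. The 10 G1 genes had medians of 0.050 and 0.0098 in the same comparisons with NT.

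**Figure D4:**
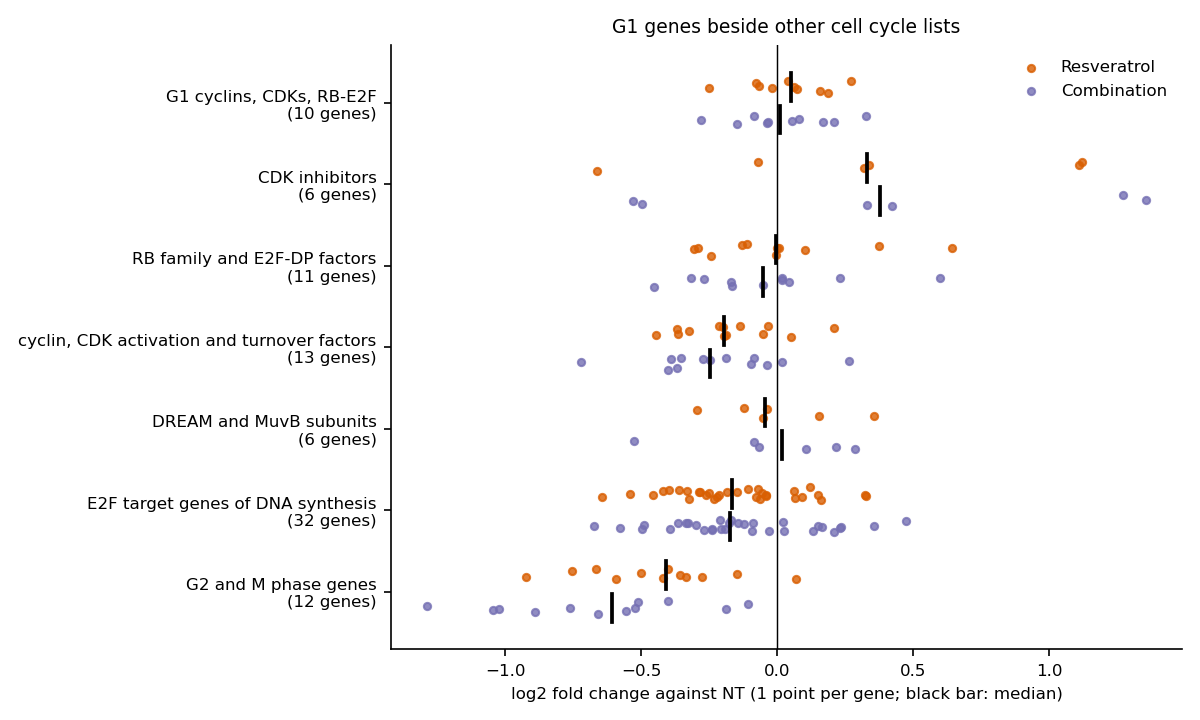
Log2 fold change against NT of the 10 G1 genes and of 6 other cell cycle lists, 1 point per gene, with resveratrol and the combination; black bars are medians. The G1 genes stay between -0.28 and 0.33, whereas CDK inhibitors reach 1.36 and G2 and M phase genes -1.29.

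Across the 24 libraries, the genes whose log2 CPM followed each member most closely were ranked by Pearson's r. These points share 4 treatment groups, so r includes the differences between groups. CDK4 had the closest followers, DMAC1 (0.97), SNRPB (0.97) and NACA (0.96). CDK6 was followed by MED13 (0.89), RB1 by ARHGAP5 (0.89), CCND1 by IGF2BP3 (0.87), CDK2 by FAM3A (0.83), CCNE1 by TRAIP (0.82), CCNE2 by SOAT1 (0.81) and CCND3 by TUBA4A (0.78). E2F1 and CDKN1B had the lowest best values, 0.66 with ZNF692 and 0.72 with ENSG00000268573.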

How the data were processed

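Total RNA of 24 samples was made into stranded mRNA libraries and read in pairs. Per the labels' processing notes the submitters used bcl2fastq 2.17.1.14, Trimmomatic 0.36, FastQC 0.11.5, HISAT2 2.0.4, SAMtools 1.3.1 and DESeq2 1.20.0 with GRCh38; the counting program, annotation and strand setting are not given in the sources used here, so reads of overlapping genes are of uncertain origin. The authors deposited raw counts per gene, without normalization or pooling. The normalized counts that the authors deposited are a signal made by dividing each library's counts by 1 size factor, which a constant ratio over genes showed. The deposited FPKM values were checked to be a constant multiple of these per gene, and were used only to compare levels between genes.

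Raw counts of the 15476 genes that passed filterByExpr went into a fit of edgeR 4.0.16, run in R 4.3.3 (TMM, quasi-likelihood test, 24 libraries, group as the only term), as the main count test in place of the DESeq2 of the study's methods. Library totals were 7034872 to 11735574, and the biological coefficient of variation was 5.32%. Calls needed an adjusted p under 0.1 and p under 0.05. Intervals are at 95%. Ratios were tested by exact permutation with SciPy 1.17.1, on log2 ratios of counts. The members, lists and alternatives were chosen with earlier results of these data known. In all comparisons every member is named, and of each list up to 4 called genes with the largest change in the combination, with all paralogs; CDC6, BRCA1, POLA2, RRM2, SKP2, AMBRA1 and TOP2A were named after their values were seen. The alternatives were DESeq2 1.42.0, other scalings, filters and thresholds, only the groups compared, a replicate block, replicates 1 to 3 and 4 to 6 as a batch term or alone, FPKM ratios and each library left out. On simulated counts for resveratrol against NT over 15313 genes, edgeR called 83 of 100 genes changed by 0.5 on the log2 scale and 97 of 100 changed by 1, with 9 unchanged genes called; changes under 0.5, such as those of the 10 genes, were not simulated. The sources used here do not say that same-numbered libraries were paired, and these correlated only weakly, so the main fit has no pairing term. RefSeq promoter windows came from the reference tables. The study's other experiments were not analysed here.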

Additional observations from a re-analysis of the deposited data

Results flagged for a closer look

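Over 40 groups of 6 libraries (10 genes in 4 groups), 3 held a library far from the others by Dixon's test at the 95% level, and chance flags about 1 in 20 groups. For CDK2, EGCG replicate 6 was lowest at 887 normalized counts, where the other 5 lay between 927 and 943. Also for CDK2, combination replicate 4 was lowest at 883, where the others lay between 986 and 1038. For CDK4, combination replicate 3 was highest at 1481, where the others lay between 1349 and 1386, and without it the change of CDK4 against NT was -0.30.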

How the results depend on the processing

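Of 17 calls of G1 genes over the comparisons, 4 were kept in all 34 alternatives, namely CDK4 against NT with resveratrol and with the combination, CDK4 in the combination against EGCG, and CDK2 in the combination against NT. None of the 17 changed sign. Same-numbered libraries of different groups correlated weakly, at -0.011 to 0.13 (median 0.049), and 2 of 36 pairs were over 0.1. The median was 0.028 for other numbers within the same set of 3 replicates and -0.041 between the sets. Of 24 libraries, 11 correlated best with their own number. The main fit has group as its only term and so leaves out any such structure. With a replicate block, 5, 6, 2 and 6 members were called for resveratrol, the combination, the combination against resveratrol and against EGCG, and interaction DEGs rose from 41 to 85; the calls it added were CCND1 with resveratrol (0.060, adjusted p = 0.0400) and CDK6 in the combination against EGCG (-0.12, adjusted p = 0.0271), and it ended none. Interaction DEGs were 79 with a batch term, 69 with DESeq2, 92 with every gene that had a count, 1195 with the unadjusted p, and 6 and 24 in replicates 1 to 3 and 4 to 6.

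By the unadjusted p alone DEGs were 1570 with EGCG and 2811 for the combination against resveratrol, and 1 member was called for interaction. At an adjusted p under 0.05 the combination against resveratrol had 803 DEGs and 1 member. With EGCG, replicates 1 to 3 gave 84 DEGs and replicates 4 to 6 gave 85, and the latter gave 399 for the combination against resveratrol. Members called with resveratrol were 7 with library size alone, beside 9004 of all 15476 genes, 7 with only the groups compared and 1 in replicates 4 to 6. For the combination against resveratrol they were 1 with only the groups compared, 0 in replicates 4 to 6 and 1 to 2 over libraries left out, and against EGCG 2 in replicates 1 to 3. Where no count of all genes stands beside them, these member counts describe the settings and are not read as results about the G1 genes. CDK2 with resveratrol passed with at least 10 counts per library (0.098) and only the groups compared (0.079), CCND3 with the combination with at least 10 counts (0.11), and CDK6 with resveratrol with every gene that had a count (-0.085) and only the groups compared (-0.073). With every gene that had a count the calls of CCNE1 with resveratrol (0.15) and CDK2 against EGCG (0.088) were lost. The log2 ratio of CCNE1 to CCNE2 was -0.23 and 0.26 with EGCG and -0.38 and 0.16 with resveratrol in replicates 1 to 3 and 4 to 6.

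Genes that were not called changed sign as follows, and the cause was not tested. With library size alone, CDK6 was 0.0087, CDKN1B 0.070 and E2F1 0.021 with resveratrol, RB1 0.049 and E2F1 0.046 with the combination, and CCND1 0.031 for the combination against EGCG. With every gene that had a count, E2F1 was -0.0057 for the combination against EGCG, and with at least 10 counts per library CDKN1B was 0.0074 with resveratrol. In replicates 1 to 3, CCNE1 was -0.013 and CCNE2 0.20 with EGCG, CCND3 -0.015 and CDKN1B 0.056 with resveratrol, CCNE2 -0.050 for the combination against resveratrol, RB1 -0.054 against EGCG, and CCNE2 -0.25 and CDK4 0.027 for interaction. In replicates 4 to 6, CDK4 was 0.017 and RB1 0.0096 with EGCG, RB1 0.074 with the combination, CDK6 0.0013 against resveratrol, E2F1 -0.028 against EGCG, and CDK2 -0.034 and CDK6 0.017 for interaction. Over libraries left out, the ranges that crossed 0 were -0.018 to 0.040 (CCNE1), -0.069 to 0.032 (CCNE2) and -0.033 to 0.0093 (CDK4) with EGCG, -0.040 to 0.0053 (CDKN1B) with resveratrol and -0.096 to 0.055 (RB1) with the combination. They were -0.016 to 0.13 (CCNE2) against resveratrol, -0.053 to 0.098 (RB1) and -0.014 to 0.037 (E2F1) against EGCG, and -0.0048 to 0.090 (CCNE1), -0.00085 to 0.15 (CCNE2), -0.042 to 0.0034 (CDK4) and -0.070 to 0.028 (CDK6) for interaction. For log2 ratios they were -0.024 to 0.042 (CCND1 to CCND3, resveratrol), -0.022 to 0.076 and -0.14 to 0.050 (CCNE1 to CCNE2, EGCG and the combination against resveratrol) and -0.095 to 0.020 and -0.091 to 0.036 (CDK6 to CDK4, the same comparisons). CCND1 to CCND3 with the combination ran from -0.21 to -0.12 and passed without NT replicate 3, and CDK6 to CDK4 with resveratrol ran from 0.14 to 0.22 and passed without NT replicate 6. Changes that were not called passed without 1 library as follows: CCND1 with resveratrol (0.059 to 0.078) without NT replicate 5, EGCG replicates 1, 2, 4 or 6 or combination replicate 3; CDK2 with resveratrol (0.072 to 0.11) without any of these, NT replicate 3, resveratrol replicate 5 or combination replicate 4; and CCND3 with the combination (0.097 to 0.11) without NT replicate 3, EGCG replicates 1, 2, 4 or 6 or combination replicate 1. Against EGCG, CDKN1B (0.11 to 0.13) passed without NT replicate 5, EGCG replicates 4 or 6 or combination replicates 3 or 4, CDK6 (-0.15) without combination replicates 1 or 6 and CCND1 (-0.066) without combination replicate 4, as did CDK2 against resveratrol (0.13). Counting error limits CCNE2 most, at 61 to 91 counts per NT library.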
